A study of Mus musculus with 3 samples.

Results

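The photoreceptor fate transcription factors described here are 10 genes, *Crx*, *Nrl*, *Nr2e3*, *Otx2*, *Rorb*, *Thrb*, *Neurod1*, *Prdm1*, *Rxrg* and *Mef2d*. They were taken by symbol from the gene table, in which each had 1 row among 33696 genes. No limit on their levels was used to choose them, but earlier results of these data were known when they were chosen. They were followed in rods, cones, bipolar cells and neurogenic precursors of droplet single-cell libraries of mouse retina at postnatal day 6. There was 1 library for each of 3 genotypes on a C57BL/6 background: wild type (WT), a global knockout of *Tspan12* (*Tspan12* KO), and *Ctnnb1* flox/flox mice carrying *Pdgfb*-iCreERT, which deletes *Ctnnb1* in endothelial cells after tamoxifen on 3 daily doses from postnatal day 1 (*Ctnnb1* cKO). TSPAN12 is a co-receptor component of Norrin signaling and beta-catenin, encoded by *Ctnnb1*, carries that signal to the nucleus. The *Pdgfb* driver does not target photoreceptors, bipolar cells or precursors. Each library pooled the retinas of several mice, and the WT mice came from other litters than the knockouts. The authors state that both sexes were used in all experiments, but the sexes within each library are not given. The cells had been enriched with beads against CD31 and CD11b, so the neurons described here are cells that were carried along with the vascular cells and microglia.

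Rods, cones and bipolar cells descend from retinal precursors that switch on *Otx2*, a homeodomain factor needed for photoreceptor and bipolar fate. *Prdm1* (Blimp1) holds such cells on the photoreceptor path by repressing bipolar genes, *Rorb* and *Crx* drive photoreceptor differentiation, and *Neurod1* is a basic helix-loop-helix factor of developing photoreceptors. *Nrl*, a Maf-family leucine zipper factor, and its target *Nr2e3*, a nuclear receptor that represses cone genes, set rod identity. *Mef2d* cooperates with *Crx* in rods, whereas *Thrb* and *Rxrg* are nuclear receptors of the cone lineage.

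Promoter sequences of *Crx*, *Nrl* and *Nr2e3* are shown because these 3 factors were high in rods in every library and bind or lie downstream of one another in the rod program. All 10 factors matched the RefSeq promoter table of build GRCm38.p6, with 16 promoters in all. Each sequence runs 5′ to 3′ on the strand of the gene, from 250 bases before to 50 bases after its start. In the *Crx* promoter, at chr7:15879906-15880205 on the minus strand, capitals mark the motif TAATCC, a core bound by the Crx and Otx2 homeodomains, on either strand. In the *Nrl* promoter, at chr14:55524203-55524502, and the *Nr2e3* promoter, at chr9:59950030-59950329, both on the minus strand, capitals mark the E-box CANNTG, the motif of Neurod1 and other basic helix-loop-helix factors.
Crx: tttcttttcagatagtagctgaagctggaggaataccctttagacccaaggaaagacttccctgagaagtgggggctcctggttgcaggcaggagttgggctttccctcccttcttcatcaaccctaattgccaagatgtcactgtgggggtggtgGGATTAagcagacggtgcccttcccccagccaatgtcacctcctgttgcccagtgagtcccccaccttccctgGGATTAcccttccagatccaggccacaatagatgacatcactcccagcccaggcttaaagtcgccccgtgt
Nrl: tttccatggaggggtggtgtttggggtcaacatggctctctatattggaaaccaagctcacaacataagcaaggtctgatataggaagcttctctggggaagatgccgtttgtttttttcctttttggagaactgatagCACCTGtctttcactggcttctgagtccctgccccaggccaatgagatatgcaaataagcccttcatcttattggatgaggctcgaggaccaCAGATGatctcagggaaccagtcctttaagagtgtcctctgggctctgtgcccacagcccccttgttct
Nr2e3: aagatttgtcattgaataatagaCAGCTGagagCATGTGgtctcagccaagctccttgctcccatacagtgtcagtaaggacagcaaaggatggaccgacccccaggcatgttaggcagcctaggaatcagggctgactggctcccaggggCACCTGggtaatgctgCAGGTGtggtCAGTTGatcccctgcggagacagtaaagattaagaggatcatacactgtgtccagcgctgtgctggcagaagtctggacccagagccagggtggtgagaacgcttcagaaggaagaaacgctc

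The *Crx* promoter held 2 matches to TAATCC, starting 94 and 21 bases before the gene start. Single matches lay in 1 promoter of *Otx2* and 1 of *Thrb*, so 3 of the 16 promoters held the motif, against 7.06% of all 32851 promoters. The *Nrl* promoter held 2 E-boxes and the *Nr2e3* promoter 5, but the E-box is common: 11 of the 16 promoters and 72.3% of all promoters held it. The spaced motif TGCNNNNNNGCA, made of TGC and GCA with a gap between them, was in promoters of *Otx2*, *Prdm1* and *Thrb* and in 8.44% of all promoters. Whether Nrl binds matches with this gap was not tested. The nuclear receptor motif AGGTCA was in promoters of *Rxrg* and *Thrb* and in 16.3% of all promoters. All 4 motifs were searched on both strands, and in the printed windows no match overlapped another.

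Cells were grouped into classes by clustering without these 10 genes, and classes were named from markers that include none of them. There were 2859 WT, 4777 *Tspan12* KO and 1970 *Ctnnb1* cKO rods. Cones numbered 72, 276 and 14, bipolar cells 467, 796 and 114, and neurogenic precursors 720, 523 and 57, in the same order. These 4 classes held 4118 of 8989 WT cells, 6372 of 12732 *Tspan12* KO cells and 2155 of 8451 *Ctnnb1* cKO cells, although the labels call the samples vascular cells. Endothelial cells were 5.99%, 2.28% and 32.1% of the cells. Median UMIs (unique molecular identifiers, each 1 captured transcript) per rod were 3386 for WT, 1736 for *Tspan12* KO and 1756.5 for *Ctnnb1* cKO. The libraries shared 21 to 37 cell barcodes per pair. With 1 library per genotype there was no replicate check and no test, and library and genotype cannot be told apart in any comparison. Intervals are 95% intervals, and counting error is the only error in them.

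Genes from the marker lists that named the classes are given here, so their levels describe the classes and do not check the names. *Pdc*, the photoreceptor gene for phosducin, stood at 3604 CPM (the UMIs of a gene out of every 1000000 UMIs pooled from a class) in WT rods and 2725 in WT cones against 275 in WT bipolar cells. *Vsx1*, a bipolar homeodomain factor, stood at 50.03 CPM in WT bipolar cells and 0.509 in WT rods. *Olig2*, a factor of neurogenic cells, stood at 66.2 CPM in WT precursors and 1.07 in WT rods, and *Arr3*, cone arrestin, at 177 CPM in WT cones and 2.03 in WT rods. A pair of features bears on every comparison of rods and cones. The rods split into 7 clusters, called a to g here. Of the *Ctnnb1* cKO rods, 1932 of 1970 lay in clusters f and g, which held 3 WT and 7 *Tspan12* KO rods, so *Ctnnb1* cKO and WT rods were compared across different clusters. The cones of WT were deep, with a median of 16271.5 UMIs against 7816.5 in *Tspan12* KO and 2561.5 in *Ctnnb1* cKO.

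Of the 4 classes, neurogenic precursors held the most *Otx2* in all 3 libraries, at 1879.8 (1838 to 1922) CPM for WT, 1852 (1789 to 1915) for *Tspan12* KO and 2018 (1800.1 to 2255) for *Ctnnb1* cKO. Bipolar cells came next, at 1788 (1743 to 1833) CPM for WT, 1623 (1582 to 1665) for *Tspan12* KO and 1274 (1139 to 1421) for *Ctnnb1* cKO. Rods were lower, at 1271 (1255 to 1288) CPM for WT, 1208 (1192 to 1223) for *Tspan12* KO and 987 (964 to 1009.6) for *Ctnnb1* cKO. In WT and *Tspan12* KO the precursor, bipolar and rod intervals did not overlap, and neither did those of *Ctnnb1* cKO. Cones held 1084 (1034 to 1136) CPM for WT, 1048 (1017 to 1080.1) for *Tspan12* KO and 409 (229 to 675) for *Ctnnb1* cKO, each below the rods of its library. Microglia, taken as a background class, gave 26.6 to 96.9 CPM of *Otx2* over the 3 libraries.

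*Rorb*, an orphan nuclear receptor, followed the same order. Precursors held 7298 (7215 to 7381) CPM for WT, 7586 (7460.0 to 7714) for *Tspan12* KO and 8293 (7845 to 8761) for *Ctnnb1* cKO, and bipolar cells 5099 (5023 to 5175) CPM for WT, 4244 (4177 to 4312) for *Tspan12* KO and 3838 (3600.2 to 4087) for *Ctnnb1* cKO. Rods held 2577 (2553 to 2600.5) CPM for WT, 2280.2 (2259 to 2302) for *Tspan12* KO and 2584 (2548 to 2621) for *Ctnnb1* cKO, and cones 2287 (2214 to 2362) CPM for WT, 1959.8 (1917 to 2003) for *Tspan12* KO and 982 (687 to 1359) for *Ctnnb1* cKO. Precursors were thus at more than 2 times the rod level in every library. *Rorb* was not particular to the photoreceptor lineage: WT Muller glia held 3778 (3729 to 3828) CPM, WT amacrine cells 3088 (3045 to 3130.3) and WT retinal progenitors 2966 (2908 to 3024), each above WT rods. The microglial level was 54.2 to 177 CPM.

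*Prdm1* was highest in rods, at 789 (776 to 803) CPM for WT, 744 (732 to 756) for *Tspan12* KO and 389 (375 to 404) for *Ctnnb1* cKO. Cones held 690.1 (650.2 to 732) CPM for WT, 597 (573 to 621) for *Tspan12* KO and 299.9 (149.7 to 537) for *Ctnnb1* cKO. Rods and cones of *Ctnnb1* cKO were both well below those of the other libraries. Precursors held 264 (248 to 279.9) CPM for WT, 240.3 (218 to 264) for *Tspan12* KO and 311 (229.7 to 413) for *Ctnnb1* cKO, and bipolar cells 220.4 (205 to 237) CPM for WT, 236 (221 to 253) for *Tspan12* KO and 193 (143 to 256) for *Ctnnb1* cKO. In *Ctnnb1* cKO the rod interval overlapped those of cones and precursors. The factor that represses bipolar genes was thus lower in bipolar cells than in rods in each library. The microglial level was 32.9 to 61.2 CPM, and endothelial cells held 74.9 to 84.6 CPM.

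*Neurod1* stood at 1887 (1867 to 1907) CPM for WT, 1604 (1586 to 1622) for *Tspan12* KO and 2202 (2168 to 2236) for *Ctnnb1* cKO in rods. Cones held 1516 (1456 to 1577) CPM for WT, 1405 (1369 to 1441) for *Tspan12* KO and 2836 (2317 to 3436) for *Ctnnb1* cKO, so rods were highest in WT and *Tspan12* KO and the 14 cones in *Ctnnb1* cKO. In precursors it was 1273 (1239 to 1309) CPM for WT, 1037 (991 to 1085) for *Tspan12* KO and 1596 (1403 to 1809) for *Ctnnb1* cKO, and in bipolar cells 550.0 (525 to 576) CPM for WT, 532 (508 to 556) for *Tspan12* KO and 1183 (1053 to 1325) for *Ctnnb1* cKO. Bipolar cells were the lowest of the 4 classes in each library, but those of *Ctnnb1* cKO were above those of the other libraries. Microglia held 30.6 to 71.3 CPM.

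*Crx*, the homeodomain factor that activates most photoreceptor genes, stood at 736 (723 to 748) CPM for WT, 754 (742 to 766) for *Tspan12* KO and 537 (520.4 to 554) for *Ctnnb1* cKO in rods. In cones it was 649 (609.9 to 689) CPM for WT, 705 (679 to 731) for *Tspan12* KO and 218 (94.2 to 429.8) for *Ctnnb1* cKO. Photoreceptors of *Ctnnb1* cKO held less *Crx* than those of the other libraries. Bipolar cells, which also use *Crx*, held 265 (248 to 283) CPM for WT, 295 (278 to 313) for *Tspan12* KO and 304 (239.7 to 379.6) for *Ctnnb1* cKO, and precursors held 298 (282 to 316) CPM for WT, 322 (296 to 349) for *Tspan12* KO and 415 (319.8 to 530.3) for *Ctnnb1* cKO. The precursor and bipolar intervals overlapped in all 3 libraries. Microglia held 16.5 to 44.2 CPM.

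*Nrl* was highest in rods, at 793 (780.1 to 806) CPM for WT, 773 (761 to 786) for *Tspan12* KO and 729 (709 to 748) for *Ctnnb1* cKO. Cones held 505 (471 to 541) CPM for WT, 618 (594 to 642) for *Tspan12* KO and 599.8 (376 to 908) for *Ctnnb1* cKO. The rod levels of the 3 libraries thus lay close together and cones were not free of *Nrl*. Bipolar cells held 91.5 (81.6 to 102) CPM for WT, 183 (169.8 to 198) for *Tspan12* KO and 201 (149.8 to 264) for *Ctnnb1* cKO, and precursors 45.1 (38.8 to 52.1) CPM for WT, 111 (96.5 to 128) for *Tspan12* KO and 175 (115 to 255) for *Ctnnb1* cKO. Both classes were lowest in WT among the 3 libraries. WT microglia held 24.1 (18.4 to 31) CPM, below WT precursors, and those of *Tspan12* KO and *Ctnnb1* cKO 53.9 and 19.5 CPM.

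*Nr2e3* was also highest in rods, at 2072 (2051 to 2093) CPM for WT, 1356 (1339 to 1372) for *Tspan12* KO and 1258 (1233 to 1284) for *Ctnnb1* cKO. The 3 rod intervals did not overlap and WT was highest. Cones held 1410.5 (1353 to 1469.6) CPM for WT, 1172 (1139 to 1206) for *Tspan12* KO and 1091 (779 to 1485) for *Ctnnb1* cKO. In bipolar cells it was 178 (164 to 193) CPM for WT, 253 (237 to 270.1) for *Tspan12* KO and 245 (187 to 313) for *Ctnnb1* cKO, and in precursors 68.2 (60.4 to 76.7) CPM for WT, 155 (138 to 175) for *Tspan12* KO and 214 (147 to 301) for *Ctnnb1* cKO. In bipolar cells and precursors WT was thus lowest, the reverse of rods. Microglia held 24.7 to 66.1 CPM.

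*Mef2d*, a MADS-box factor, was the one with the least difference between these classes and microglia. It stood at 219 (212 to 226) CPM for WT, 281 (273 to 288) for *Tspan12* KO and 259 (248 to 271) for *Ctnnb1* cKO in rods and 267 (243 to 294) CPM for WT, 342 (325 to 361) for *Tspan12* KO and 382 (209 to 640.5) for *Ctnnb1* cKO in cones. Photoreceptors were thus the highest of the 4 classes in each library, but in *Ctnnb1* cKO their intervals overlapped those of bipolar cells and precursors. Bipolar cells held 124 (112 to 136) CPM for WT, 147 (134 to 159.6) for *Tspan12* KO and 213 (160.0 to 278) for *Ctnnb1* cKO, and precursors 63.8 (56.2 to 72) CPM for WT, 81 (68.5 to 95.2) for *Tspan12* KO and 175 (115 to 255) for *Ctnnb1* cKO. WT precursors were below WT microglia, which held 80.7 (69.9 to 92.6) CPM.

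*Thrb* was highest in cones in all 3 libraries, at 418 (387 to 451) CPM for WT, 450.0 (429.7 to 471) for *Tspan12* KO and 491 (291 to 776) for *Ctnnb1* cKO. Rods held 189 (183 to 196) CPM for WT, 243 (236 to 250.01) for *Tspan12* KO and 76.3 (70.1 to 82.9) for *Ctnnb1* cKO, so cones were above rods in each library with separate intervals. Bipolar cells held 28.8 (23.4 to 35.1) CPM for WT, 41.4 (35 to 48.6) for *Tspan12* KO and 19.7 (6.4 to 46) for *Ctnnb1* cKO, against 2.81 to 9.32 in microglia. Precursors held 8.86 (6.21 to 12.3) CPM for WT and 23.2 (16.7 to 31.3) for *Tspan12* KO. In *Ctnnb1* cKO precursors 0 UMIs of *Thrb* were counted, which allows up to 19.5 CPM.

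*Rxrg* was scarce. Cones held 71.8 (59.3 to 86.1) CPM for WT, 70.8 (62.9 to 79.4) for *Tspan12* KO and 54.5 (6.6 to 197) for *Ctnnb1* cKO, and rods held 57.8 (54.3 to 61.4) CPM for WT, 48.9 (45.8 to 52.1) for *Tspan12* KO and 30.2 (26.4 to 34.4) for *Ctnnb1* cKO. The intervals of cones and rods overlapped in WT and *Ctnnb1* cKO and were separate in *Tspan12* KO. Bipolar cells held 6.18 (3.83 to 9.45) CPM for WT, 14.4 (10.8 to 18.9) for *Tspan12* KO and 15.8 (4.3 to 40.4) for *Ctnnb1* cKO. Precursors held 5.17 (3.2 to 7.9) CPM for WT and 5.51 (2.64 to 10.1) for *Tspan12* KO, and 0 UMIs in *Ctnnb1* cKO, which again allows up to 19.5 CPM.

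**Figure D1:**
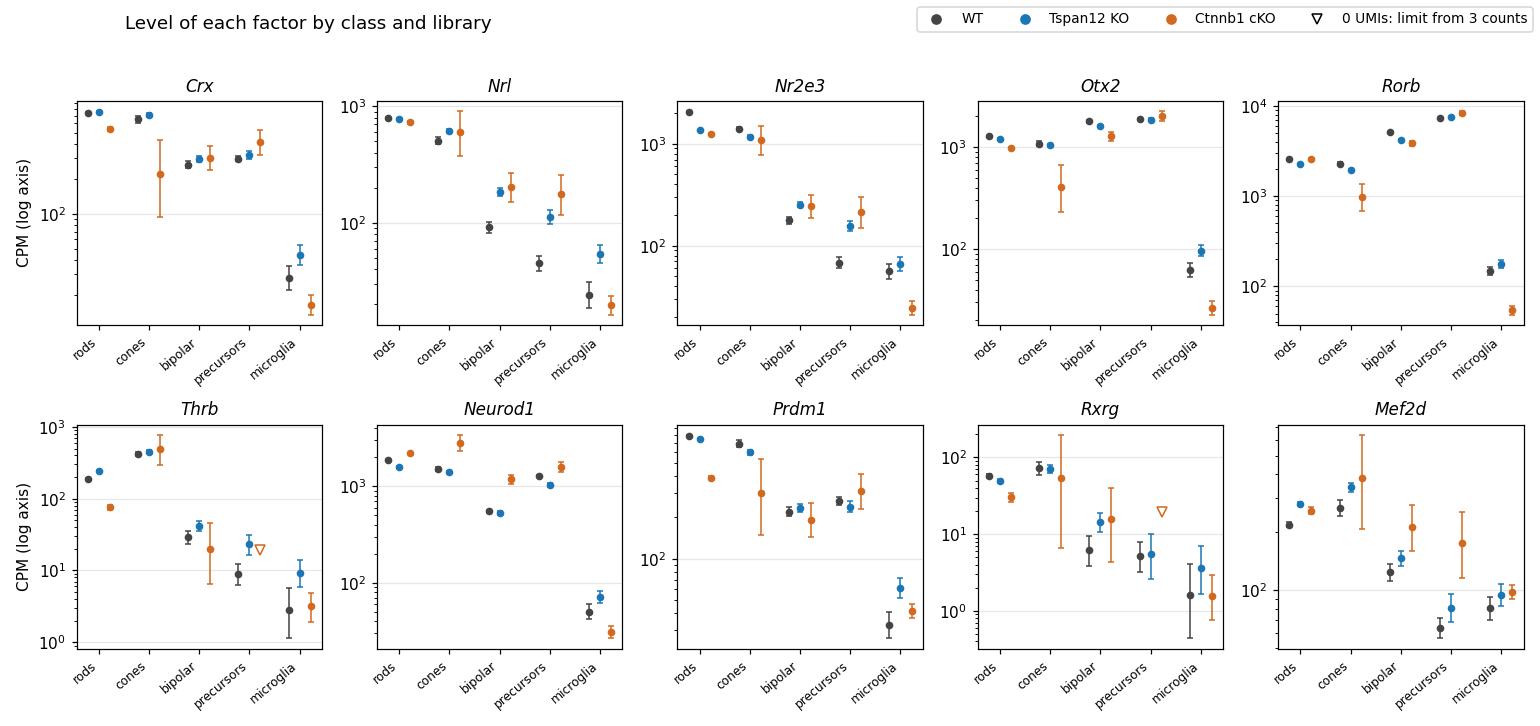
CPM of each of the 10 factors (log axis, 1 panel each) in rods, cones, bipolar cells, neurogenic precursors and microglia of the WT, *Tspan12* KO and *Ctnnb1* cKO libraries, with exact Poisson 95% intervals; open triangles are limits for 0 UMIs. *Nrl* and *Nr2e3* sat highest in rods, *Thrb* in cones and *Otx2* and *Rorb* in precursors, and *Ctnnb1* cKO cones rest on 14 cells.

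The cones were looked at by depth, because deep droplets can hold RNA of more than 1 cell. Among WT cones, 25 had at most 10000 UMIs and 47 had more. *Thrb* was 776 (622 to 956) CPM in the shallower cones and 391 (360.4 to 424) in the deeper ones, and *Rxrg* was 149.9 (87.3 to 240.0) and 65.9 (53.6 to 80.2) CPM. The rod factors went the other way: *Nr2e3* was 626 (489 to 789.7) CPM in shallower and 1469.7 (1409 to 1532) in deeper WT cones, and *Nrl* was 273 (186 to 388) and 523 (487 to 560.4). *Rorb* went the same way, at 794 (638 to 975.4) and 2399.6 (2322 to 2479) CPM. *Tspan12* KO cones differed the same way in *Thrb* and *Nr2e3*, with *Thrb* at 769 (683 to 862) CPM in 146 shallower and 418 (397 to 439) in 130 deeper cones, and *Nr2e3* at 705 (623 to 795) and 1219.5 (1184 to 1256). *Rxrg* was 87.2 (60.02 to 122) and 69.2 (61 to 78.1) CPM there, with overlapping intervals. Whether rod RNA adds to the rod factors of the deep cones was not tested.

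The share of cells with at least 1 UMI was taken after every cell was thinned to 2000 UMIs. This left out 497 WT, 2704 *Tspan12* KO and 1057 *Ctnnb1* cKO rods, and 25, 260 and 69 bipolar cells, 37, 132 and 20 precursors and 6, 89 and 4 cones in the same order. *Nr2e3* was found in 96.9% (96.1 to 97.5) of WT rods, 90.3% (88.9 to 91.5) of *Tspan12* KO rods and 80.0% (77.2 to 82.5) of *Ctnnb1* cKO rods, against 11.4%, 10.9% and 4.38% of microglia. The shares before thinning were 96.2%, 76.8% and 68.8% of rods. Fewer knockout than WT rods therefore held *Nr2e3* at equal depth.

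*Nrl* was found in 82.4% (80.8 to 83.9), 78.6% (76.8 to 80.3) and 71.9% (68.8 to 74.7) of thinned rods and in 3.51%, 12.9% and 4.07% of microglia (88.7%, 65.6% and 65.9% of rods before thinning). In WT precursors it was found in 8.2% (6.25 to 10.5), and in 17.4% (13.8 to 21.5) of *Tspan12* KO precursors. *Otx2* was found in 95.7% (93.4 to 97.4) of WT bipolar cells and 92.8% (90.6 to 94.6) of WT precursors, against 13.2% of WT microglia. *Thrb* was found in 35 of 66 WT cones (40.3% to 65.4%), 54.5% (47.1 to 61.8) of *Tspan12* KO cones, 23.1% (21.4 to 24.9) of WT rods, 3.17% (1.74 to 5.26) of WT bipolar cells and 0.439% (0.0111 to 2.42) of WT microglia. Microglia had median depths of 9358, 7364 and 2942 UMIs before thinning.

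The clusters that hold rods and the cells nearest to them were then set in the order of their *Pdc*. In WT, *Pdc* was 113 CPM in precursors, 177 in an unnamed cluster led by *Angpt1*, 658 in an unnamed cluster led by *Ccdc175*, and 2369, 3315, 4199, 4719 and 6082 in rod clusters a to e. These 2 unnamed clusters had too few markers of any class to be named, and they held 462 and 1090 WT cells. Another 3 unnamed clusters, of 48, 96 and 82 WT cells with median depths of 875.5, 29926 and 36404 UMIs, were left out of the order. The shallow one breaks it: at 516 CPM of *Pdc* it held 6279 CPM of *Rorb* and 1404 of *Otx2*. The deep one of 96 cells, at 1593 CPM of *Pdc*, breaks it too. It held 354 CPM of *Nrl*, 496 of *Crx*, 1177 of *Neurod1* and 528 of *Prdm1*. These were below both the *Ccdc175* cluster and rod cluster a, whereas its *Nr2e3*, at 988 CPM, lay between them. Rod cluster a was deep, with a median of 12287 UMIs in WT. The clusters led by *Angpt1* and *Ccdc175* carried the early factors at high levels. *Otx2* was 2138 (2079 to 2199) CPM in the *Angpt1* cluster and 2082 (2037 to 2128) in the *Ccdc175* cluster, against 1879.8 (1838 to 1922) in precursors and 897 (849.8 to 945) in rod cluster e.

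*Rorb* was lower along the same series in WT, from 7298 CPM in precursors to 5516 in the *Angpt1* cluster, 3651 in the *Ccdc175* cluster, 3624 in rod cluster a, 2089 in cluster b and 1265 in cluster e, with 1753 and 1914 in clusters c and d. *Prdm1* differed early in the order, with 264 (248 to 279.9) CPM in precursors and 668 (635 to 702) in the *Angpt1* cluster, and lay between 612 and 894 in the rod clusters. *Neurod1* likewise went from 1273 (1239 to 1309) to 1899.8 (1844 to 1957) CPM and was highest in rod cluster b at 2179 (2126 to 2233). *Crx* went from 298 to 479.6 CPM in the *Angpt1* cluster, 648 in the *Ccdc175* cluster and 742 in rod cluster a.

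The rod factors came later in this order. *Nrl* was 45.1 (38.8 to 52.1) CPM in WT precursors, 142 (127 to 159) in the *Angpt1* cluster, 686 (659.8 to 712) in the *Ccdc175* cluster, 589 (571 to 606) in rod cluster a and 967 (932 to 1003) in cluster b. *Nr2e3* was 68.2 (60.4 to 76.7), 112 (98.8 to 127), 745 (718 to 772), 1485 (1458 to 1514) and 2554 (2497 to 2612) CPM in the same clusters. In the *Ccdc175* cluster *Nrl* was thus close to its level over all WT rods while *Pdc* and *Nr2e3* were far below theirs. *Thrb* was 20.1 CPM in the *Ccdc175* cluster and did not follow the order within rods. It was 172 CPM in rod cluster a, 48.8 in b, 195 in c, 308 (292 to 324) in d and 163 in e. These are orders of clusters at 1 age and do not follow cells in time.

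**Figure D2:**
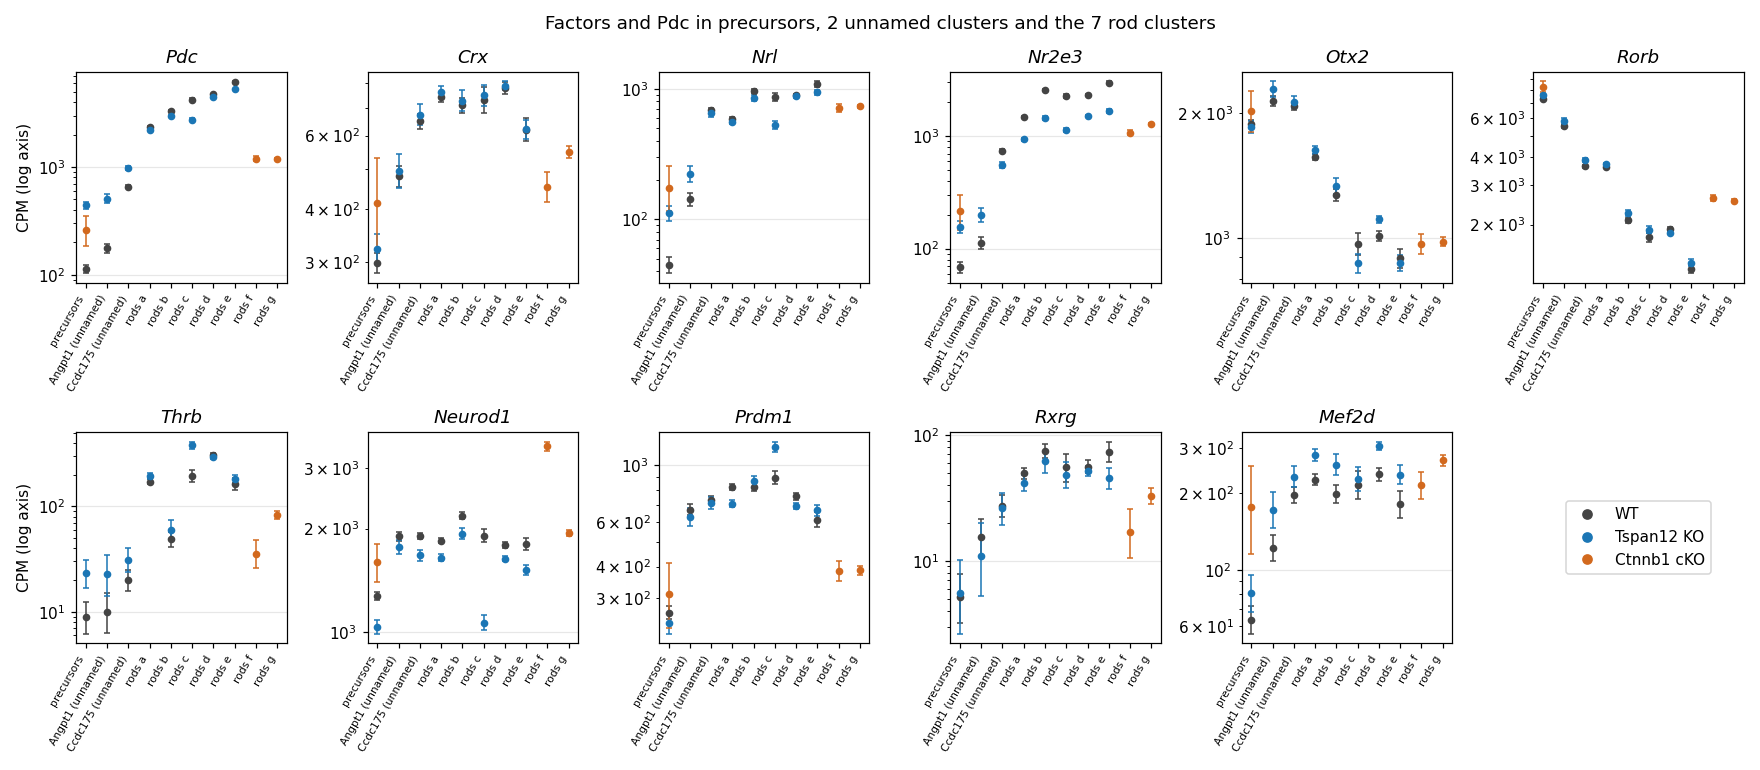
CPM (log axis) of *Pdc* and the 10 factors in neurogenic precursors, the unnamed clusters led by *Angpt1* and *Ccdc175*, and rod clusters a to g (a to e in the order of WT *Pdc*, f and g those of *Ctnnb1* cKO), with exact Poisson 95% intervals, for each library with at least 30 cells in the cluster. *Otx2* and *Rorb* stood high on the left and *Nrl*, *Nr2e3* and *Thrb* on the right, with *Thrb* uneven over the rod clusters. WT *Nr2e3* lay above *Tspan12* KO in rod clusters a to e.

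Detection of pairs of factors in the same thinned cell was described for 8 pairs. In WT precursors *Prdm1* was found in 36.4% (32.7 to 40.3) of cells with *Otx2* and 20.4% (10.2 to 34.3) of cells without it. *Crx* was found in 44% (40.1 to 48) with and 20.4% (10.2 to 34.3) without *Otx2*, and *Neurod1* in 79.7% (76.3 to 82.7) and 51% (36.3 to 65.6). The intervals of cells with and without *Otx2* were separate for *Crx* and *Neurod1* and overlapped for *Prdm1*. With cells thinned to 1000 UMIs they overlapped for all 3. In WT rods the intervals overlapped for *Otx2* with *Prdm1* and for *Crx* with *Nrl*. There *Prdm1* was found in 74.3% (72.3 to 76.2) with and 68.4% (63.2 to 73.4) without *Otx2*, and *Nrl* in 83.2% (81.4 to 84.9) with and 80.2% (76.8 to 83.3) without *Crx*. *Nr2e3* was found in 97.4% (96.6 to 98) of WT rods with *Nrl* and 94.5% (91.8 to 96.5) without it, and in *Tspan12* KO rods in 92% (90.5 to 93.2) and 84% (80.3 to 87.3). In *Tspan12* KO rods *Nrl* was found in 78.4% (76.6 to 80.2) with and 82% (72.5 to 89.4) without *Rorb*, and the intervals overlapped.

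For *Rxrg* and *Thrb*, the cone-lineage receptors, the intervals overlapped. *Rxrg* was in 14.7% (8.47 to 23.1) of *Tspan12* KO cones with *Thrb* and 16.5% (9.31 to 26.1) without it. In WT rods the shares were 12.1% (9.47 to 15.1) and 10.8% (9.45 to 12.4). *Nrl* was in 72.4% (52.8 to 87.3) of *Tspan12* KO cones with *Rxrg* and 63.9% (55.9 to 71.4) without it, so cones with *Rxrg* were not free of *Nrl*.

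Each knockout library was then set against WT within a class, as the log2 ratio of CPM. A factor was called when that ratio was 1 or more, or −1 or less, and both libraries had to have at least 30 cells and the gene at least 20 UMIs over both. In rods of *Tspan12* KO, 0 of the 10 factors were called, while among all 16050 genes 1.69% were called higher and 2.79% lower. The factor furthest from 0 was *Nr2e3*, at −0.61 (−0.64 to −0.59). It was lower in *Tspan12* KO in each of rod clusters a to e, at −1.002 to −0.62, and in the unnamed *Ccdc175* cluster, at −0.43 (−0.54 to −0.33). *Neurod1* was −0.23 (−0.26 to −0.21) in rods and lower in the same 5 clusters, at −0.84 to −0.13. *Mef2d* was 0.36 (0.30 to 0.42) and *Thrb* 0.36 (0.30 to 0.43), whereas *Crx* was 0.04 (0.002 to 0.07) and *Nrl* −0.04 (−0.07 to −0.004). *Mef2d* was above 0 in the same 5 clusters, at 0.08 to 0.38. *Thrb* was uneven, from −0.07 (−0.16 to 0.02) in cluster d to 0.96 (0.73 to 1.19) in cluster c, and its intervals included 0 in b, d and e. Within clusters a to e *Nrl* was below 0 in all 5, at −0.70 to −0.03. *Pdc*, at 0.05 (0.03 to 0.06) over all rods, was likewise below 0 in all 5, at −0.61 to −0.09.

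In *Ctnnb1* cKO rods 2 of the 10 factors were called lower and 0 higher, against 12.9% called lower and 14.2% called higher among 15584 genes. The 2 were *Thrb*, at −1.31 (−1.44 to −1.18), and *Prdm1*, at −1.02 (−1.08 to −0.96). *Rxrg* was −0.94 (−1.15 to −0.73), *Nr2e3* −0.72 (−0.75 to −0.69), *Crx* −0.45 (−0.51 to −0.40) and *Otx2* −0.37 (−0.40 to −0.33). *Neurod1* was 0.22 (0.20 to 0.25), *Mef2d* 0.24 (0.16 to 0.32) and *Rorb* 0.004 (−0.02 to 0.03). The median of the 10 was −0.41 beside −0.07 over all genes. Because *Ctnnb1* cKO rods lay in clusters f and g, cluster and library cannot be told apart here. Within *Ctnnb1* cKO, *Thrb* was 35.6 (25.9 to 47.8) CPM in cluster f and 82.5 (75.4 to 90.1) in cluster g, and it ran from 48.8 to 308 CPM over WT rod clusters. *Pdc* was 1191 and 1185 CPM in clusters f and g, and over all *Ctnnb1* cKO rods its ratio was −1.58 (−1.61 to −1.55). *Prdm1* was 385 (351 to 421) and 387 (371 to 403) CPM in clusters f and g, below every WT rod cluster. *Neurod1* was 3469.6 (3367 to 3575) CPM in cluster f and 1943 (1908 to 1978) in cluster g. It led cluster f by fold over clusters outside rods and cones, and that rank was not taken against other rod clusters. The calls of *Thrb* and *Prdm1* ended with doublets kept and with finer clusters, and that of *Prdm1* also with rods picked cell by cell from markers, with very deep clusters counted as rods and with the *Ccdc175* cluster counted as rods. Over the 13 alternatives *Prdm1* ran from −1.28 to −0.90 and *Thrb* from −1.57 to −0.82.

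Cones were compared between *Tspan12* KO and WT alone, since *Ctnnb1* cKO had 14 cones. None of the 10 factors was called, against 2.18% higher and 2.7% lower among 11966 genes. *Thrb* was 0.11 (−0.02 to 0.23), *Rxrg* −0.02 (−0.33 to 0.30), *Nr2e3* −0.27 (−0.34 to −0.19) and *Nrl* 0.29 (0.18 to 0.41). The 2 cone-lineage receptors thus differed by less than their counting intervals, and cone depth differed between the libraries as given above.

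In bipolar cells of *Tspan12* KO 2 factors were called higher, *Nrl* right at the threshold, at 1.004 (0.81 to 1.20), and *Rxrg* at 1.22 (0.47 to 2.03) from 52 against 21 UMIs, and 0 lower. Among 12470 genes 3.48% were called higher and 1.86% lower. The call of *Nrl* ended under 8 of 12 alternatives, among them TMM scaling at 0.996, and that of *Rxrg* under 2. *Otx2* was −0.14 (−0.19 to −0.09) and *Rorb* −0.26 (−0.30 to −0.23), so the factors that were high in bipolar cells were slightly lower. In *Ctnnb1* cKO bipolar cells 3 factors were called higher, *Nrl* at 1.14 (0.68 to 1.57), *Neurod1* at 1.11 (0.92 to 1.28) and *Rxrg* at 1.35 (−0.65 to 2.92) from 4 UMIs. None was lower, and the shares over 10672 genes were 7.35% higher and 14.5% lower. All 3 calls ended with doublets kept. *Otx2* was −0.49 (−0.65 to −0.33) there and *Rorb* −0.41 (−0.50 to −0.32).

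In neurogenic precursors of *Tspan12* KO 3 factors were called higher, *Nrl* at 1.31 (1.01 to 1.60), *Nr2e3* at 1.19 (0.94 to 1.43) and *Thrb* at 1.39 (0.71 to 2.07), and 0 lower, beside 2.35% higher and 2.57% lower among 12046 genes. In *Ctnnb1* cKO precursors, which numbered 57, 3 of 8 factors with a ratio were called higher, *Nrl* at 1.96 (1.32 to 2.55), *Nr2e3* at 1.65 (1.08 to 2.17) and *Mef2d* at 1.46 (0.83 to 2.03). None was lower, and 9.75% of 10330 genes were called higher and 12.6% lower (7.83% and 15.4% with TMM scaling, which moved the median of all genes from −0.03 to −0.15). All 3 calls ended when precursors were picked cell by cell from markers, and that of *Mef2d* also with CPM averaged over cells. *Otx2* and *Rorb*, the factors highest in precursors, were −0.02 (−0.08 to 0.04) and 0.06 (0.03 to 0.09) in *Tspan12* KO and 0.10 (−0.07 to 0.27) and 0.18 (0.10 to 0.27) in *Ctnnb1* cKO. *Neurod1* was −0.30 (−0.37 to −0.22) and 0.33 (0.14 to 0.51). In *Tspan12* KO the calls of *Nrl* and *Nr2e3* ended under that same choice of cells, and that of *Thrb* with doublets kept. Both contrasts share the WT library.

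**Figure D3:**
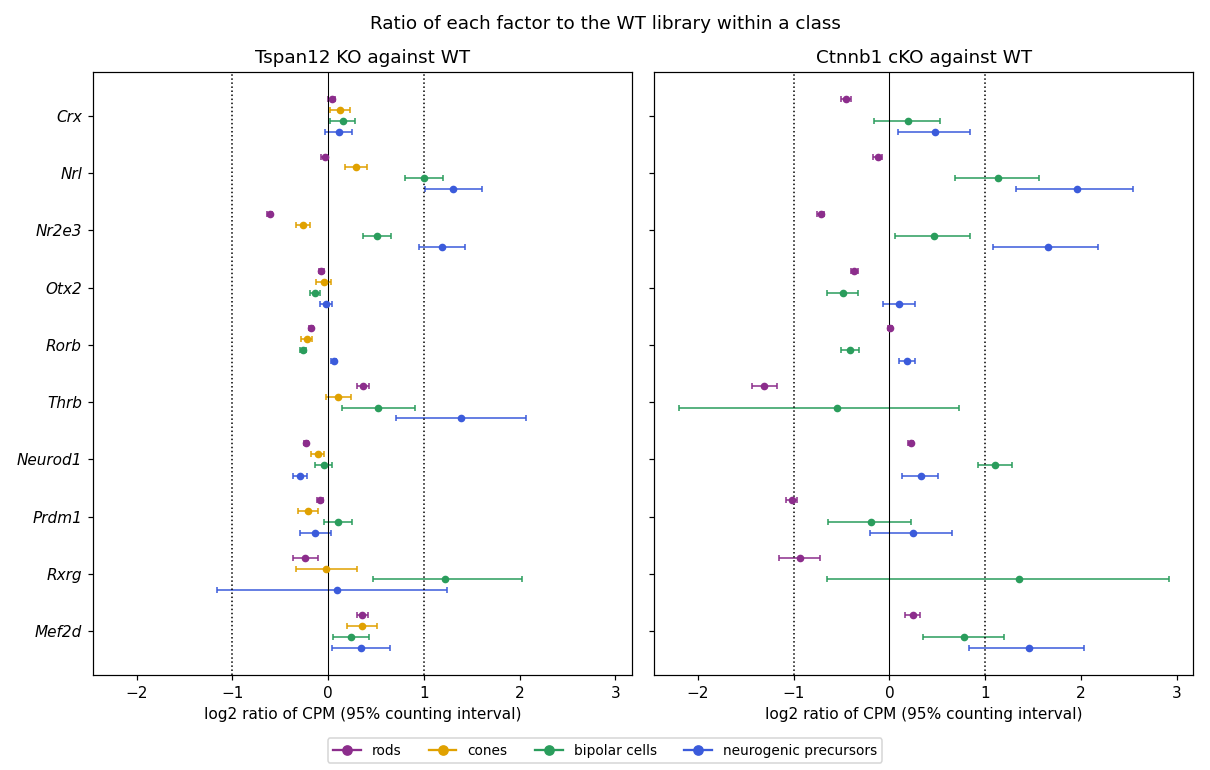
Log2 ratio of CPM to WT of each factor in *Tspan12* KO (left) and *Ctnnb1* cKO (right), by class, with exact conditional binomial 95% intervals; dotted lines mark the ratios of −1 and 1 past which a factor was called, and ratios with 0 UMIs in 1 library are left out. *Nr2e3* was below 0 in rods and above 0 in precursors of both libraries, and *Mef2d* was above 0 throughout.

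*Pdc* was read in the same bipolar cells and precursors, and it too differed between libraries there. In bipolar cells *Pdc* was 275 CPM for WT, 678 for *Tspan12* KO and 347 for *Ctnnb1* cKO, and in precursors 113, 439 and 259.6. Its order was not that of *Nrl* in both knockouts: in *Ctnnb1* cKO bipolar cells the log2 ratio of *Nrl* was 1.14 and that of *Pdc* 0.34. In Muller glia *Pdc* was 101, 429 and 238 CPM. *Nrl* in Muller glia was 28.9, 96 and 94.5 CPM, or a ratio of 1.73 (1.46 to 1.999) for *Tspan12* KO and 1.71 (1.11 to 2.26) for *Ctnnb1* cKO. *Nr2e3* was 1.46 (1.26 to 1.67) and 1.91 (1.499 to 2.30) there. In microglia of *Tspan12* KO *Nrl* was 1.16 (0.71 to 1.63) and *Pdc* 1.16 (0.92 to 1.39). In microglia of *Ctnnb1* cKO *Pdc* was lower than in WT, at −1.67 (−1.97 to −1.38).

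The UMIs of *Nr2e3* and *Nrl* per *Pdc* UMI were compared within a library. For *Nr2e3* in *Tspan12* KO they were 0.364 (0.359 to 0.37) in rods, 0.374 (0.346 to 0.403) in bipolar cells, 0.354 (0.308 to 0.406) in precursors, 0.333 (0.302 to 0.368) in Muller glia and 0.331 (0.276 to 0.396) in microglia. All these intervals overlapped that of rods. In *Ctnnb1* cKO they were 1.04 (1.01 to 1.07) in rods, 0.705 (0.501 to 0.986) in bipolar cells, 0.825 (0.504 to 1.34) in precursors and 0.881 (0.706 to 1.1) in microglia, where bipolar cells lay below rods and the others overlapped them. For *Nrl* in *Tspan12* KO they were 0.208 (0.204 to 0.211) in rods, 0.224 (0.199 to 0.251) in Muller glia, 0.27 (0.222 to 0.328) in microglia, 0.271 (0.248 to 0.295) in bipolar cells and 0.253 (0.216 to 0.296) in precursors, and only Muller glia among these 4 overlapped rods. For *Nrl* in *Ctnnb1* cKO, bipolar cells at 0.58 (0.402 to 0.827) and precursors at 0.675 (0.398 to 1.13) overlapped rods at 0.604 (0.584 to 0.625), as did microglia and Muller glia. The *Ccdc175* cluster held 1.04 (0.987 to 1.1) *Nrl* UMIs per *Pdc* UMI in WT and 0.66 (0.612 to 0.71) in *Tspan12* KO, against 0.22 (0.216 to 0.224) in WT rods. It was not alone in lying above rods. The *Angpt1* cluster did so too, with 329 *Nrl* and 409 *Pdc* UMIs in WT and 204 and 469 in *Tspan12* KO. So did WT precursors, with 183 and 461 UMIs, and WT bipolar cells, with 311 and 934. What part free RNA from rods had in the *Nrl* of bipolar cells and precursors was not tested.

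**Figure D4:**
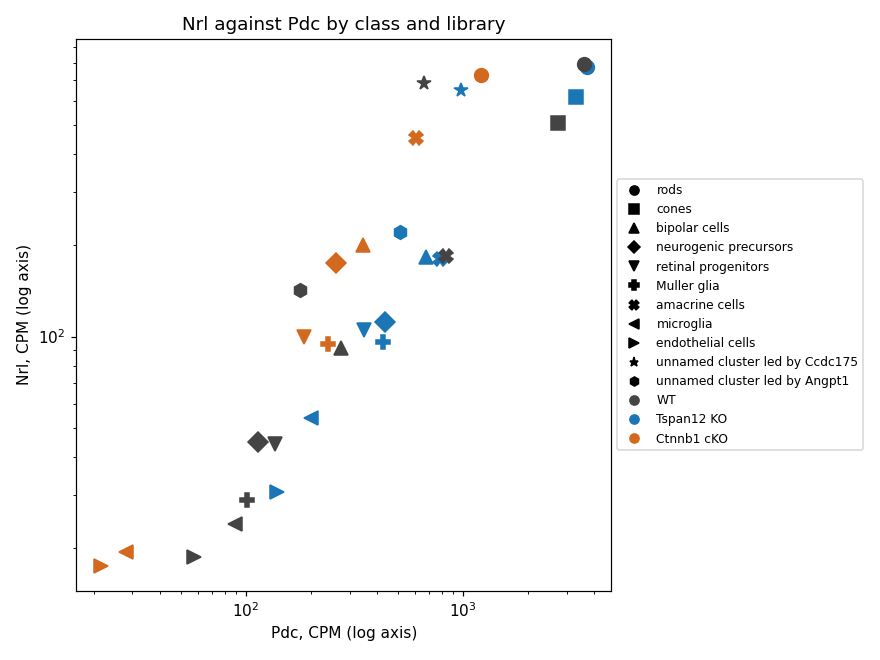
*Nrl* against *Pdc*, both in CPM on log axes, with 1 point per class and library of at least 30 cells; shapes stand for classes and colors for libraries. Precursors, bipolar cells, Muller glia and microglia of *Tspan12* KO lay to the upper right of those of WT. The clusters led by *Ccdc175* and *Angpt1* lay above classes of like *Pdc* in the same library.

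*Mef2d* was higher in both knockout libraries in all 7 comparisons of the 4 classes, at 0.24 to 1.46, and in all 10 comparisons of Muller glia, retinal progenitors, amacrine cells, microglia and endothelial cells, at 0.11 to 1.17, of which the intervals of amacrine cells and microglia of *Tspan12* KO included 0. Its difference was therefore found in the cells outside the photoreceptor lineage too, with 0.40 (0.26 to 0.55) for *Tspan12* KO and 0.42 (0.30 to 0.54) for *Ctnnb1* cKO endothelial cells. *Nr2e3* had no such common direction: it was lower in *Tspan12* KO rods, cones and the amacrine class, at −0.63 (−0.72 to −0.53), and higher in bipolar cells, precursors, Muller glia, retinal progenitors and endothelial cells. For cones this rests on the deeper cells, since cones of at most 10000 UMIs held 705 (623 to 795) CPM in *Tspan12* KO against 626 (489 to 789.7) in WT. The amacrine class held *Pdc* too, at 831 CPM in WT and 787 in *Tspan12* KO.

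Related genes were read from lists. Of the 18 paralogs of the factors, 16 had enough UMIs in rods, with 1 called higher and 0 lower in *Tspan12* KO and 4 higher and 1 lower in *Ctnnb1* cKO. Among all genes in rods the shares were 1.69% higher and 2.79% lower in *Tspan12* KO and 14.2% and 12.9% in *Ctnnb1* cKO. The 1 paralog called in both was *Maf*, a Maf-family relative of *Nrl*, at 1.10 and 1.62. The closer relatives of several factors were present in WT rods without passing a 2-fold difference in *Tspan12* KO: *Neurod4*, a bipolar and precursor relative of *Neurod1*, was −0.51, *Rora* 0.22 and *Mef2a* −0.05. *Mef2a* was −1.09 in *Ctnnb1* cKO, opposite to *Mef2d*.

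Among 22 other regulators of photoreceptor and bipolar fate, 5 were called higher and 0 lower in *Tspan12* KO rods and 13 higher and 2 lower in *Ctnnb1* cKO rods, with medians of 0.22 and 1.38. All genes in rods stood at 1.69% higher and 2.79% lower in *Tspan12* KO and 14.2% and 12.9% in *Ctnnb1* cKO. The 5 called in both were *Vsx1*, *Bhlhe23* and *Isl1*, regulators of bipolar cells, and *Hes1* and *Olig2*, of progenitors and precursors. *Isl1* was 1.54 in *Tspan12* KO and 1.79 in *Ctnnb1* cKO, and *Hes1* 1.02 and 2.26. All 5 were under 12 CPM in WT rods, and *Vsx1*, *Isl1*, *Olig2* and *Hes1* are among the markers that named bipolar cells, precursors and progenitors. *Vsx1* was 0.509, 2.91 and 2.58 CPM in rods of the WT, *Tspan12* KO and *Ctnnb1* cKO libraries, and *Olig2* 1.07, 2.7 and 5.71 CPM. The part of other cells' RNA in these calls was not tested. *Samd7*, a photoreceptor polycomb partner, was −0.49 and −1.14, and *Samd11*, its relative, 0.10 and 0.17.

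Of 20 photoreceptor genes that took no part in naming the classes, 2 were called higher and 0 lower in *Tspan12* KO rods and 2 higher and 3 lower in *Ctnnb1* cKO rods, with medians of 0.14 and −0.52. The counts in *Ctnnb1* cKO were near the 14.2% higher and 12.9% lower of all genes in rods, and those in *Tspan12* KO stood beside 1.69% and 2.79%. The 2 called in both were *Guca1a*, at 1.54 and 2.02, and *Guca1b*, at 1.29 and 1.68, which encode guanylate cyclase activators. In *Tspan12* KO bipolar cells 8 of 18 genes of this list were called higher and in precursors 7 of 16, with 0 lower in either, beside the 3.48% and 2.35% of all genes. The medians over the list were 0.95 and 0.99, and the other genes of the list did not pass the 2-fold difference.

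The genes most like each factor were named by Pearson's r of log2(CPM + 10) over 32 profiles, which were 14 classes in up to 3 libraries, among 15210 genes. The profiles of a library share its depth and free RNA, and the classes are not independent. For *Nrl* these were *Samd11* (0.99), *Rom1* (0.99), *Tulp1* (0.98), and for *Nr2e3* *Rpgrip1* (0.98), *Rom1* (0.98), *Nrl* (0.98). For *Crx* they were *Mir124a-1hg* (0.98), *Insm1* (0.97), *Neurod1* (0.97), for *Neurod1* *Crx* (0.97), *Epb41* (0.97), *Shisal1* (0.96), and for *Prdm1* *Cerkl* (0.96), *Trak2* (0.95), *Crx* (0.94). Within the 10, *Crx* and *Neurod1* were thus among each other's closest genes, *Nrl* among those of *Nr2e3* and *Crx* among those of *Prdm1*. For *Otx2* they were *Slc1a2* (0.98), *Srrm4* (0.97), *Fabp7* (0.97), and for *Rorb* *Cracd* (0.99), *Ptbp2* (0.98), *Gpr137c* (0.98). For *Thrb* they were *Rnf32* (0.95), *Dnai4* (0.94), *Cplx4* (0.94), for *Rxrg* *Rdh12* (0.96), *Impg2* (0.95), *Ubxn11* (0.95), and for *Mef2d* *Fam53b* (0.91), *Tecpr1* (0.89), *Eml3* (0.89). *Mef2d* had the lowest r to its closest gene.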

How the data were processed

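Droplet single-cell libraries (10x 3′ v3) of mouse retinas at postnatal day 6 were measured, 1 library for each genotype. The authors deposited counts, that is UMI counts per gene and cell barcode, which they made with Cell Ranger. The methods name version 9.0.0 of it with mm10-3.0.0, the file headers another version and the submitters' notes build GRCm39, so the build of the counts is not settled and no coordinates were taken from them.

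Barcodes had to pass the limits the authors state (250 genes, 500 UMIs, 15% mitochondrial UMIs). Scrublet's automatic threshold marked 0, 2 and 343 doublets in the WT, *Tspan12* KO and *Ctnnb1* cKO libraries, so the 760, 1656 and 665 cells with the highest Scrublet scores, 0.8% per 1000 cells, were removed, and 8989, 12732 and 8451 remained. The total counts were 92684519 UMIs for WT, 137114957 for *Tspan12* KO and 37008362 for *Ctnnb1* cKO before these filters. Cells were clustered (scanpy 1.11.5, leidenalg 0.10.2, 2000 variable genes without the 10 factors, 30 components, 20 neighbors, resolution 1), and a cluster was named where at least 3 markers of a class were 2-fold higher. Photoreceptor clusters were clustered a second time, and those whose median UMIs exceeded 300% of their libraries' median were left unnamed. These naming rules were set after the clusters were seen, and unnamed cells were 20.0%, 24.6% and 4.15% of the libraries. The factors, the lists and their markers were chosen with earlier results of these data known.

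UMIs were summed per class and library with numpy 2.4.6 and scipy 1.17.1. Levels have exact Poisson intervals, ratios exact conditional binomial ones and shares Clopper-Pearson ones. Ratios needed 30 cells in both libraries and 20 UMIs over both, and a count of 0 was set to a floor of 3 counts or gave no ratio. No test between genotypes was run, because each had 1 library. Genes named beside the factors are the 3 closest to each by profile and the members of the lists called in both knockouts. *Neurod4*, *Rora*, *Mef2a*, *Samd7* and *Samd11* were chosen after their values were seen. *Pdc*, *Vsx1* and *Olig2* were likewise taken later as class markers, since some planned marker values are not reported here. Alternatives were TMM scaling (edgeR 4.0.16), other cell sets, other clusterings and other count limits. The ratio scripts were tested on simulated data.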

Additional observations from a re-analysis of the deposited data

Results flagged for a closer look

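*Nr2e3*, the nuclear receptor of rods, differed from WT in opposite directions in different classes of the same library, with both log2 ratios at least 0.5 from 0 and both intervals clear of 0. In *Tspan12* KO its log2 ratio was −0.61 in rods and 0.51 in bipolar cells, a difference of 1.12 between bipolar cells and rods. In precursors of *Tspan12* KO the ratio was 1.19, which lay 1.80 above that of rods. In *Ctnnb1* cKO the ratio was −0.72 in rods and 1.65 in precursors, a difference of 2.37. None of these differences was tested, since each genotype had 1 library. *Pdc*, a photoreceptor gene, was higher than WT in bipolar cells and precursors too, at 1.30 and 1.95 in *Tspan12* KO and at 1.19 in *Ctnnb1* cKO precursors, and its part in these differences was not tested. The *Nr2e3* level of microglia was 56.2 CPM for WT, 66.1 for *Tspan12* KO and 24.7 for *Ctnnb1* cKO.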

How the results depend on the processing

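The count of factors called in rods of *Tspan12* KO was 0 under every alternative run. Elsewhere it depended on the choice of cells. In bipolar cells of *Tspan12* KO, 2 factors were called. The count was 1 with TMM scaling, with doublets kept, with the factors allowed among the variable genes, with cells picked by markers, at resolution 2 and with at least 2000 UMIs per cell. It was 0 with each library clustered on its own and with a pseudocount of 5 CPM, and 4 with at most 10000 UMIs per cell. In rods of *Ctnnb1* cKO, 2 factors were called. The count was 0 with doublets kept and at resolution 2, 1 with cells picked by markers, with deep clusters counted as rods and with the *Ccdc175* cluster counted as rods, and 4 with CPM averaged over cells and with at most 10000 UMIs per cell. In bipolar cells of *Ctnnb1* cKO the count was 3, and 0 with doublets kept. In precursors of *Ctnnb1* cKO it was 3, and it was 6 with doublets kept, 0 with cells picked by markers, 5 at resolution 2, and 5 with a pseudocount of 5 CPM. In precursors of *Tspan12* KO it was 3, and 1 with cells picked by markers. In cones of *Tspan12* KO it was 0, and 1 with cells picked by markers (*Nr2e3*, lower). The cause of these differences was not tested.

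No called ratio changed sign. Of the ratios of single factors under the alternatives, 531 kept their call or, where there was none, stayed inside their counting interval. Another 216 moved, 29 lost the call and 15 gained it. *Nr2e3* was below 0 in rods of *Tspan12* KO in 14 of 14 alternatives, at −0.92 to −0.45. With doublets kept and at resolution 2, the class that its markers named cones held 995 and 674 WT cells, so that it was another set of cells. Clustering each library on its own gave no cones, and no bipolar cells or precursors in *Ctnnb1* cKO, hence no values there. Averaging CPM over cells moved the shares of all genes called in *Tspan12* KO rods to 5.66% higher and 3.73% lower, and the median of all genes in *Ctnnb1* cKO rods from −0.07 to −0.18. The settings on at most 10000 UMIs, deep clusters, the *Ccdc175* cluster and the mean over rod clusters were chosen after seeing the data.

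No paired analysis was possible because each genotype had 1 library. Depth limits *Rxrg* and *Thrb* in the 57 *Ctnnb1* cKO precursors, where 0 UMIs were counted, and all factors in the 14 *Ctnnb1* cKO cones.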
